A study of Mus musculus with 8 samples.

Results

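The genes described here were 10 transcription regulators of meiotic and post-meiotic male germ cells, chosen by name and read from a table of 17127 genes measured by RNA-seq in whole mouse testis. They were Mybl1, Tcfl5 and Brdt, which act in pachytene spermatocytes, Sox30 and Rfx2, which are needed around the exit from meiosis, and Crem, Fhl5, Tbpl1, Taf7l and Sox5, which act mainly in spermatids. All 10 were in the table and were tested. The libraries came from adult males aged 4 months, with 1 testis of 1 mouse per library. The control group held 4 wild-type mice. The mutant group carried Iqch-/-, a homozygous CRISPR-Cas9 deletion within a late coding exon of Iqch, made in B6CBAF1 zygotes, which is predicted to truncate the protein and is carried by somatic as well as germ cells. The study kept a pair of such lines, mu5 and mu7. The labels do not say which line gave each library, while the study names mu7 in the legend of its RNA-seq coverage plot of Iqch. The labels list 4 mutants, of which mutants 1, 2 and 4 were analysed here. Mutant 3 was not analysed here, and the study left out 1 mutant as an outlier.

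In the male germ line, transcription is controlled in stages. A-MYB, the product of Mybl1, drives a programme of meiotic and piRNA pathway genes in pachytene spermatocytes, and TCFL5 and the testis bromodomain protein BRDT act at the same stage. After meiosis, CREM and its testis coactivator ACT, the product of Fhl5, activate genes for protamines, transition proteins and other spermatid products, while germ-cell relatives of general factors, such as TRF2 (Tbpl1) and TAF7L, work at spermatid promoters.

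Promoter windows show which of these regulators carry sequence matches for one another. The sequences are those of RefSeq on GRCm38.p6, running from 250 bases before to 50 bases after the annotated start. Windows of 8 of the 10 genes were searched, 9 windows in all because Fhl5 has a pair of starts. Mybl1 had no window in the set used, and Crem was left out of the search. The windows were searched on both strands for a MYB motif read as CAACTG or as TAACTG, and likewise as CAACGG or as TAACGG, for the full cAMP response element TGACGTCA and its shorter form TGACG, for the E-box CACGTG, for the RFX letters GTTGCC and for the SOX letters ACAAT. The 3 windows with a MYB match are printed 5′ to 3′ on the gene's strand, with capitals marking every match to MYB, to TGACG, to the E-box and to the RFX letters on either strand.
Tcfl5, chr2:180642642-180642941 (-): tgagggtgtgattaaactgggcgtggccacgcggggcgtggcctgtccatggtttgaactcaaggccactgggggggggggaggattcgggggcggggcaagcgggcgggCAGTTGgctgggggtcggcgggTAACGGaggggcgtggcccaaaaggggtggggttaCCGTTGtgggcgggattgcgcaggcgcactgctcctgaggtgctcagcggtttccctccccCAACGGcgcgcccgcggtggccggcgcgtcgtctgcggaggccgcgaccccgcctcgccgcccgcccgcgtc
Rfx2, chr17:56830959-56831258 (-): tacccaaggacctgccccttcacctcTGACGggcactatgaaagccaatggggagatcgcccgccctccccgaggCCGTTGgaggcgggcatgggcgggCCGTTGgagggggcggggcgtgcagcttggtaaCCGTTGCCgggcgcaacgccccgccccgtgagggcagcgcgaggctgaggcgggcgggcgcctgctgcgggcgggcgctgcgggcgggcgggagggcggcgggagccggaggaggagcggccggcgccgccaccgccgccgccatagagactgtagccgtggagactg
Taf7l, chrX:134476441-134476740 (-): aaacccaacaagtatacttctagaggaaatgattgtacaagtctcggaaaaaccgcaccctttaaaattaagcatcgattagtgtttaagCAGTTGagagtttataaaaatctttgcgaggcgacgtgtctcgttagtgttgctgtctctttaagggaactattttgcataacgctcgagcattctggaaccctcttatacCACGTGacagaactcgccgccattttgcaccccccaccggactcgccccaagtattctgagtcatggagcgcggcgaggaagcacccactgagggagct

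The Tcfl5 window held 4 MYB matches, beginning at -140, -118, -83 and -22 from the start. The Rfx2 window held 3, at -175, -151 and -118, with a TGACG at -224 and a GTTGCC at -116 that overlaps the last MYB match. Taf7l had 1 MYB match at -160 and a CACGTG at -49. Windows of Fhl5, Brdt, Sox5, Tbpl1 and Sox30 had no MYB match. These letters are common in the genome: of 32851 promoter windows of the same length, 28.3% held a MYB match, against 3 of the 9 windows here. The full cAMP response element was in 1.79% of all windows and in 0 of these 9, which do not include Crem itself. TGACG was in 20.8% of all windows and 1 of these, CACGTG in 7.15% and 2 (Brdt and Taf7l), GTTGCC in 12.5% and 2 (Rfx2 and Sox5), and ACAAT in 31.0% and 4. These are matches of letters in a window and no measure of binding.

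Values are CPM, the count of a gene scaled so that the counts of its library in the table sum to 1000000. Library totals ran from 32064384 to 37551057 reads, and the 10 regulators had between 1074 and 15546 reads each in every library. Iqch itself was lower in each mutant, at 67.7, 64.8 and 69.2 CPM against 217, 206, 216 and 193 CPM in the wild type, a log2 fold change of -1.63 ± 0.05 (SE; limma FDR 1.9e-10). In an exact two-sided permutation test the Iqch difference had p = 0.0286 (0.0571 as the doubled smaller tail), the smallest value that 4 against 3 libraries allow. Genes were called at a limma FDR below 0.01, with Benjamini-Hochberg adjustment over all 17126 tested genes. That threshold called 50.4% of all tested genes, 14.2% lower and 36.3% higher in the mutant, and the change of the median gene was 0.12 on the log2 scale. Dividing CPM by median-of-ratios size factors moved every change down by 0.13 and brought that median to -0.01, with 25.1% of genes called lower.

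Germ-cell markers were present in every library, and the cell types differed in level between the groups. Of 8 round spermatid markers, 6 were lower and 0 higher, with a summed level of 1753 to 1914 CPM in the wild type and 1499 to 1625 CPM in the mutant. All 8 elongating spermatid markers were lower. Of 8 spermatocyte markers, 2 were lower and 1 higher, with sums of 1109 to 1236 and 1030 to 1103 CPM. All 8 Sertoli markers were higher, with sums of 1193 to 1291 CPM in the wild type and 2456 to 2582 CPM in the mutant, and 7 of 8 Leydig markers were higher, at 1132 to 1345 and 4709 to 4853 CPM. All 8 macrophage markers, 4 of 7 spermatogonia markers (1 with size factors) and 1 of 7 peritubular myoid and endothelial markers were higher and none of them lower on the deposited scale. With size factors 1 of the 7 myoid and endothelial markers was lower, and 7 of 8 Sertoli markers were higher. None of the tested markers was listed at 0 in any library. In whole testis, fewer cells of a type and less RNA of a gene per cell cannot be told apart.

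On the deposited scale 5 regulators fell in the mutant testes and 0 rose, by small amounts, while against round spermatid markers 0 fell and 2 rose. On the latter scale 9224 of all 17126 genes were called higher and 696 lower. The 5 that fell on the deposited scale were Tcfl5, Sox30, Rfx2, Fhl5 and Tbpl1, and the 5 that were not called were Mybl1, Brdt, Crem, Taf7l and Sox5. The share called lower, 5 of 10, stood beside 14.2% of all genes. Mean CPM differed by between -19.0% (Fhl5) and 11.1% (Taf7l), and the median log2 fold change of the 10 was -0.16, beside 0.12 over all genes. In 7 regulators every mutant library was below every wild-type library (Tcfl5, Brdt, Sox30, Rfx2, Crem, Fhl5 and Tbpl1), a pattern that 19.5% of all genes had. The groups overlapped for Mybl1, Taf7l and Sox5.

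The direction depended on what the values were set against. With size factors 8 of 10 were lower, all but Taf7l and Sox5, beside 25.1% of all genes, and the median of the 10 was -0.30. When CPM was divided by each library's geometric mean over the 8 round spermatid markers, every change moved up by 0.22, 0 regulators were called lower and 2 were called higher, Taf7l and Sox5. On that scale Fhl5 was the only one of the 10 below 0, at -0.08 and not called. The median gene stood at 0.34 on that scale, above all of the 10 but Taf7l. Divided in the same way by the spermatocyte markers, which moved every change up by 0.06, 0 of the 10 were called: 8 stood below 0, from -0.24 for Fhl5 to -0.06 for Brdt, and Taf7l and Sox5 above 0. The part that the fall of the spermatid markers and the rise of the Sertoli and Leydig markers had in the changes of the regulators was not tested.

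**Figure D1:**
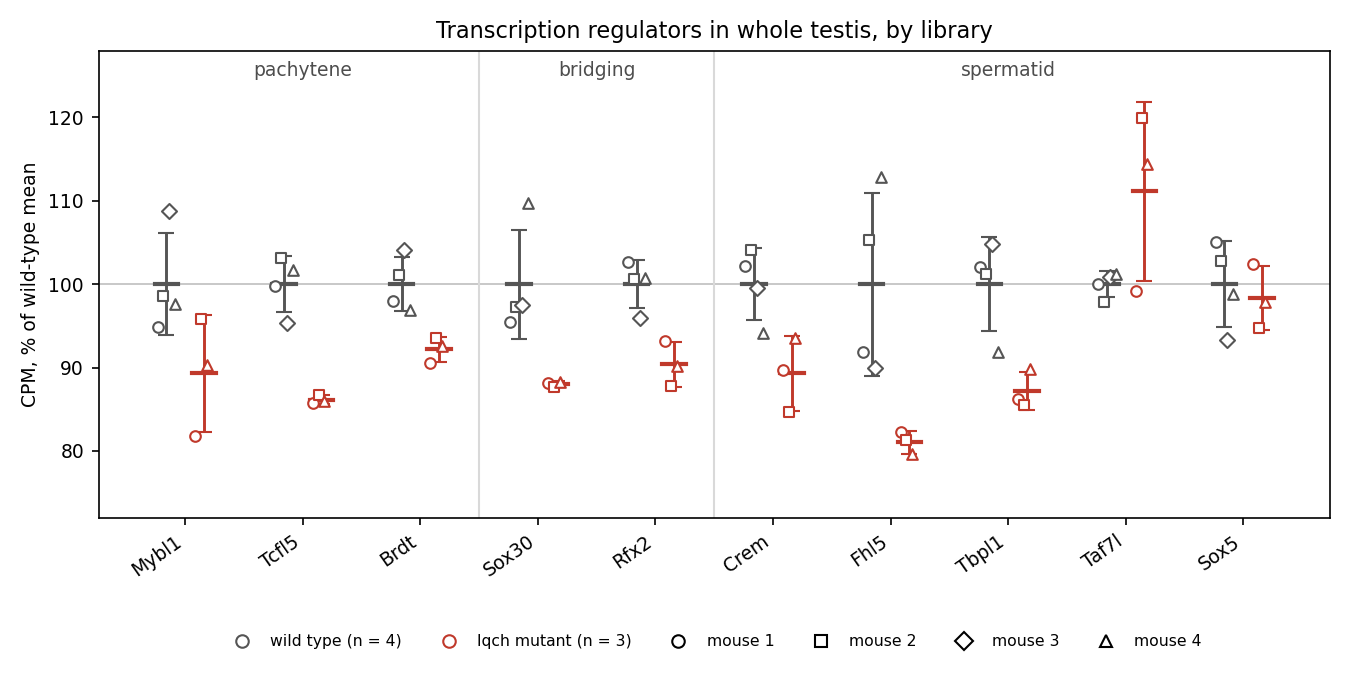
CPM of each regulator in each library as a percent of its wild-type mean (vertical axis, not starting at 0), with bars for the group mean ± SD, wild type in grey (n = 4) and mutant in red (n = 3). Mutant points of Tcfl5, Sox30 and Fhl5 sit close together below all wild-type points on this scale, while those of Mybl1, Taf7l and Sox5 reach into the wild-type range. Log2 fold changes against round spermatid markers are not drawn here. On that scale 9 of the 10 lie above 0, and the median gene stands at 0.34.

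Among the pachytene regulators, Tcfl5 fell on the deposited scale, but not against round spermatid markers, and Mybl1 and Brdt were not called. Against spermatocyte markers all of them stood below 0 with none called, Tcfl5 at -0.16, Mybl1 at -0.11 and Brdt at -0.06. Tcfl5 encodes a basic helix-loop-helix factor of spermatocytes (ENSMUSG00000038932, minus strand of chromosome 2, 180263529 to 180284556 in GRCm39). It was at 324, 335, 309.5 and 330.1 CPM in wild type 1 to 4 and at 278, 282 and 279 CPM in mutants 1, 2 and 4. The mutant values lay close together, under the lowest wild-type value. The change was -13.8%, from 325 ± 11.0 to 279.7 ± 1.70 CPM (SD, n = 4 and 3). On the log2 scale it was -0.21 ± 0.04 (SE; limma FDR 3.9e-04), or -0.35 with size factors, and 0.01 against round spermatid markers. The call was kept whichever library was left out, with FDR from 1.9e-04 to 0.0027.

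Brdt encodes the testis-specific member of the BET proteins, which bind acetylated histones (ENSMUSG00000029279, plus strand of chromosome 5, 107479024 to 107534926). Its wild-type values were 247, 254, 262 and 244 CPM and its mutant values 228, 235 and 233 CPM. The groups did not overlap, but lay close to each other, and the gene did not pass the threshold. The change was -0.12 ± 0.04 (SE) on the log2 scale, with a 95% interval of -0.20 to -0.03 (limma FDR 0.0212). It passed with size factors, at -0.25, and stood at 0.11 against round spermatid markers. The study itself listed Brdt and Crem among the genes lower in these mutant libraries, after normalising the samples and at the same FDR threshold with other tests. Here neither gene was called on deposited CPM, which differs from the study, while both were called lower with size factors. The data are the same, so the lower levels of Brdt and Crem are no independent evidence.

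Mybl1 encodes A-MYB (ENSMUSG00000025912, minus strand of chromosome 1, 9737632 to 9770628). It was at 59.9, 62.2, 68.7 and 61.6 CPM in the wild type and 51.6, 60.4 and 56.9 CPM in the mutants. Mutant 2 lay above wild type 1, so the groups overlapped. The log2 fold change was -0.16 ± 0.06 (SE; limma FDR 0.0406), with a 95% interval of -0.30 to -0.02. It ran from -0.22 without mutant 2 (FDR 0.0184) to -0.10 without mutant 1 (FDR 0.197). Of the alternatives run, only size factors called it, at -0.30, and it was 0.06 against round spermatid markers.

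Sox30 and Rfx2, needed as cells leave meiosis, both fell on the deposited scale and neither did against round spermatid markers. Sox30, a SOX family factor of spermatocytes and round spermatids (ENSMUSG00000040489, plus strand of chromosome 11, 45871054 to 45908824), was at 183, 186, 186 and 209.7 CPM in the wild type. The mutants had 169, 168 and 169 CPM. Wild type 4 stood above the other wild-type libraries, and the mutants were close together below all of them. The change was -12.0%, or -0.18 ± 0.05 on the log2 scale (SE; limma FDR 0.00667), -0.32 with size factors and 0.04 against round spermatid markers. The call was lost without wild type 2 (FDR 0.0111), mutant 1 (0.0186), mutant 2 (0.0221) or mutant 4 (0.0211).

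Rfx2 encodes a factor of ciliary and spermatid genes (ENSMUSG00000024206, minus strand of chromosome 17, 57081835 to 57138118), and its promoter window above carries 3 MYB matches. Its wild-type values were 422, 414, 395 and 414 CPM and its mutant values 383, 361 and 371 CPM. Every mutant was below every wild-type library. The change was -9.60%, from 411 ± 11.7 to 372 ± 11.1 CPM (SD). On the log2 scale it was -0.15 ± 0.04 (SE; limma FDR 0.00594), -0.28 with size factors and 0.08 against round spermatid markers. The call was lost without wild type 1 (FDR 0.0199), wild type 2 (0.0191), wild type 4 (0.0106), mutant 2 (0.0308) or mutant 4 (0.0240).

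Among the spermatid regulators, Fhl5 and Tbpl1 fell on the deposited scale, which they did not against round spermatid markers, and Crem, Taf7l and Sox5 were not called. Fhl5 encodes ACT, the LIM-domain coactivator of CREM (ENSMUSG00000028259, minus strand of chromosome 4, 25193390 to 25242876). It was at 209.7, 241, 205 and 258 CPM in the wild type and 188, 186 and 182 CPM in the mutants. The wild-type values spread widely, with wild types 2 and 4 high, while the mutants lay close together below all of them. The change was -19.0%, from 228 ± 25.1 to 185 ± 3.11 CPM (SD), and the log2 fold change was -0.30 ± 0.07 (SE; limma FDR 0.00238). It was -0.43 with size factors, and -0.08 with no call against round spermatid markers. Leaving out mutant 4 gave -0.28 and an FDR of 0.0103, just over the threshold.

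Crem encodes the cAMP-responsive activator of spermatid genes (ENSMUSG00000063889, minus strand of chromosome 18, 3260980 to 3337748). The wild-type libraries had 213, 217, 207 and 196 CPM and the mutants 187, 176 and 195 CPM. The highest mutant, mutant 4, lay just below the lowest wild-type library, wild type 4. The change was -0.16 ± 0.05 on the log2 scale (SE; limma FDR 0.0103), with a 95% interval of -0.27 to -0.06, and it missed the threshold by a margin that 1 library could move. Without wild type 4 the FDR was 0.00333, and without mutant 4 it was 0.00883, while without mutant 2 it was 0.0579 and without each other library 0.0171 to 0.0360. With size factors the change was -0.30 and called, and against round spermatid markers it was 0.06. The counts sum over the gene's isoforms, some of which encode repressors.

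Tbpl1 encodes TRF2, a relative of the TATA-binding protein (ENSMUSG00000071359, minus strand of chromosome 10, 22575092 to 22607892). Its wild-type values were 284, 282, 292 and 256 CPM and its mutant values 240.1, 238 and 250.2 CPM. Wild type 4 was low among the controls, yet above all mutants. The change was -12.8%, from 279 ± 15.7 to 243 ± 6.44 CPM (SD), or -0.20 ± 0.05 on the log2 scale (SE; limma FDR 0.00322), -0.33 with size factors and 0.03 against round spermatid markers. The call was lost without wild type 1 (FDR 0.0105), wild type 2 (0.0111), mutant 1 (0.0126) or mutant 2 (0.0155), and with the replicate number as a block (-0.17, FDR 0.0168).

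Taf7l, an X-linked germ-cell relative of the TFIID subunit Taf7 (ENSMUSG00000009596, minus strand of chromosome X, 133360861 to 133377290), had the highest fold change of the 10. It was at 32.4, 31.7, 32.7 and 32.8 CPM in the wild type, which was the tightest control group here. The mutants had 32.1, 38.8 and 37.0 CPM, so that mutant 1 lay within the wild-type range and mutants 2 and 4 above it. The log2 fold change was 0.15 ± 0.07 (SE; limma FDR 0.0716), with a 95% interval of 0.00 to 0.29, and 0.01 with size factors. It was called higher without mutant 1, at 0.23 (FDR 0.00733), and against round spermatid markers, at 0.37 (FDR 0.00147).

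Sox5 encodes a SOX factor whose short form is made in spermatids (ENSMUSG00000041540, minus strand of chromosome 6, 143774151 to 144727703). It was at 129, 126, 115 and 122 CPM in the wild type and 126, 117 and 120.4 CPM in the mutants. The groups overlapped throughout. The log2 fold change was -0.02 ± 0.05 (SE; limma FDR 0.704), with a 95% interval of -0.13 to 0.09. It was -0.16 and not called with size factors (FDR 0.0204), and 0.20 and called higher against round spermatid markers (FDR 0.00489).

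Reads of Sox5 may be shared with other annotated transcripts. In GENCODE M39, 27 genes overlap the whole span of 1 of the 10 regulators, introns included. Of these, 6 are in the table, 5 on the opposite strand, and only Mybl1 and Taf7l have no such neighbour. Whether exons overlap was not examined. The strand setting of the counting is not given in the sources used here. Whether reads of a gene and its antisense partner were kept apart is therefore not known. A pair of long non-coding RNAs within Sox5, chosen after their values were seen, fell. Sox5it, on the strand of Sox5, went from 7.65 ± 0.562 to 3.34 ± 0.603 CPM (SD), a log2 fold change of -1.18 ± 0.13 (SE; limma FDR 6.7e-06). Sox5os3, on the opposite strand, went from 29.9 ± 2.44 to 22.5 ± 1.16 CPM, at -0.41 ± 0.07 (limma FDR 3.8e-04).

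**Figure D2:**
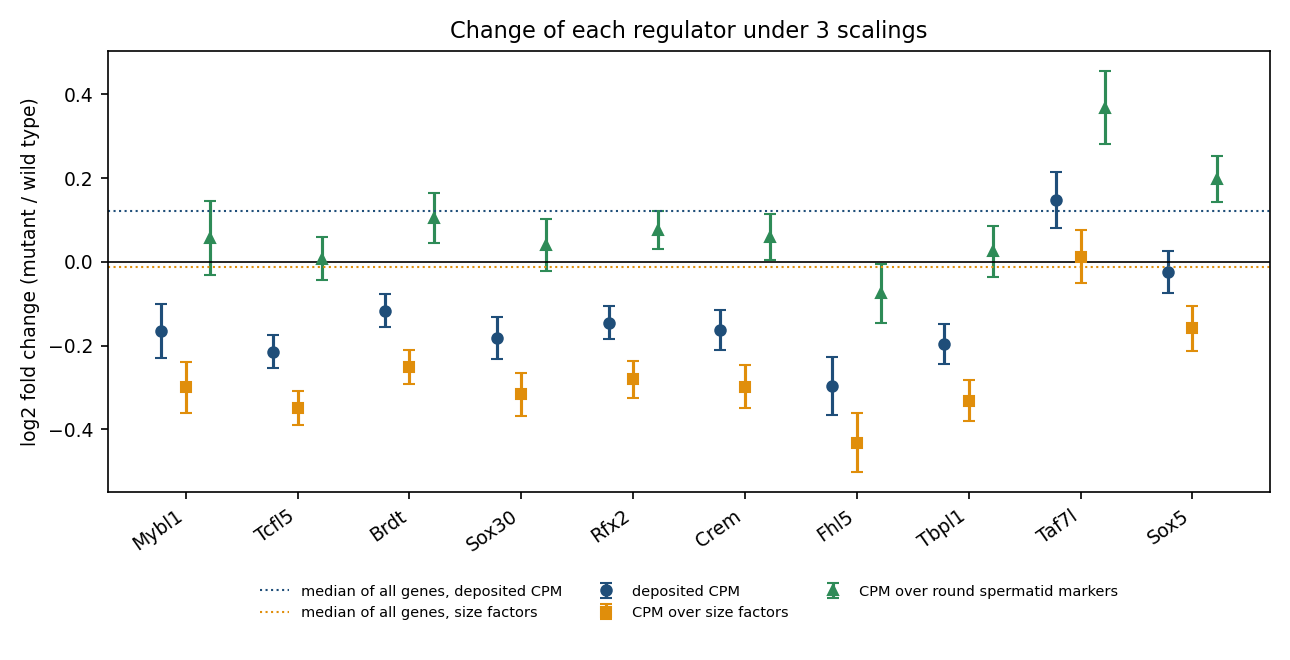
Log2 fold change (mutant over wild type) of each regulator with its SE, from deposited CPM, CPM over size factors and CPM over round spermatid markers, with dotted lines at the median of all genes for the first 2 scales. Of the 10, 8 are called lower with size factors and 5 on deposited CPM, whereas against round spermatid markers 9 lie above 0 and Taf7l and Sox5 are called higher. The median of all genes on that last scale is 0.34.

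The regulators also differed in level, compared here as wild-type CPM per kilobase of annotated exon. Sox30 was highest at 62.0, followed by Brdt at 47.8 and Rfx2 at 46.3, then Tcfl5 at 39.4 and Tbpl1 at 38.5. Fhl5 was at 28.8, Crem at 18.4, Taf7l at 14.1, Mybl1 at 8.10 and Sox5 at 7.93 CPM per kilobase. The wild-type ranges of Brdt and Rfx2 overlapped, as did those of Tcfl5 and Tbpl1 and of Mybl1 and Sox5, while the other neighbours in this order did not overlap. A pachytene regulator, Mybl1, and a spermatid regulator, Sox5, shared the bottom of the order. The lengths are those of all annotated exons of a gene together, 15.5 kilobases for Sox5 and 2.30 for Taf7l.

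The pachytene and spermatid regulators had the same median change to 2 decimals. On deposited CPM the median log2 fold change was -0.16 for the 3 pachytene regulators, -0.16 for Sox30 and Rfx2 and -0.16 for the 5 spermatid regulators, with 1, 2 and 2 called lower. All of these medians lie above 0 against round spermatid markers, which shift each by 0.22, on a scale where the median gene stands at 0.34. Spermatocyte markers shift each by 0.06, and all of these medians stay below 0. The spermatid class spread more, from -0.30 for Fhl5 to 0.15 for Taf7l, than the pachytene class, from -0.21 to -0.12. Within each library, which needs no scaling, the mean log2 level of the spermatid class minus that of the pachytene class was -0.27, -0.29, -0.38 and -0.30 in the wild type. In the mutants it was -0.22, -0.30 and -0.23. The means were -0.31 ± 0.0491 and -0.25 ± 0.0462 (SD), and the groups overlapped. Their difference of 0.06 ran from 0.03 to 0.08 as each library was left out.

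Ratios within a library also need no scaling, and 6 were compared with exact two-sided permutation tests. Tbpl1 over Tbp, the TATA-binding protein gene, was below all controls in every mutant, the only one of the 6 with no overlap between the groups. It was 1.36, 1.30, 1.31 and 1.14 in the wild type and 1.10, 1.09 and 1.12 in the mutants on the log2 scale. The difference was -0.17 (exact p = 0.0571, or 0.343 after Benjamini-Hochberg adjustment over the 6). The other 5 ratios overlapped between the groups. Fhl5 over Crem differed by -0.13 (exact p = 0.429), from -0.18 without wild type 1 to -0.04 without wild type 4. Taf7l over Taf7 differed by 0.08 (exact p = 0.257), from 0.03 without mutant 4 to 0.12 without wild type 1. Set against Mybl1, Sox30 differed by -0.02 (exact p = 0.83), Rfx2 by 0.02 (exact p = 0.857) and Crem by 0.00 (exact p = 0.971), differences smaller than the SD of either group, 0.111 to 0.162.

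**Figure D3:**
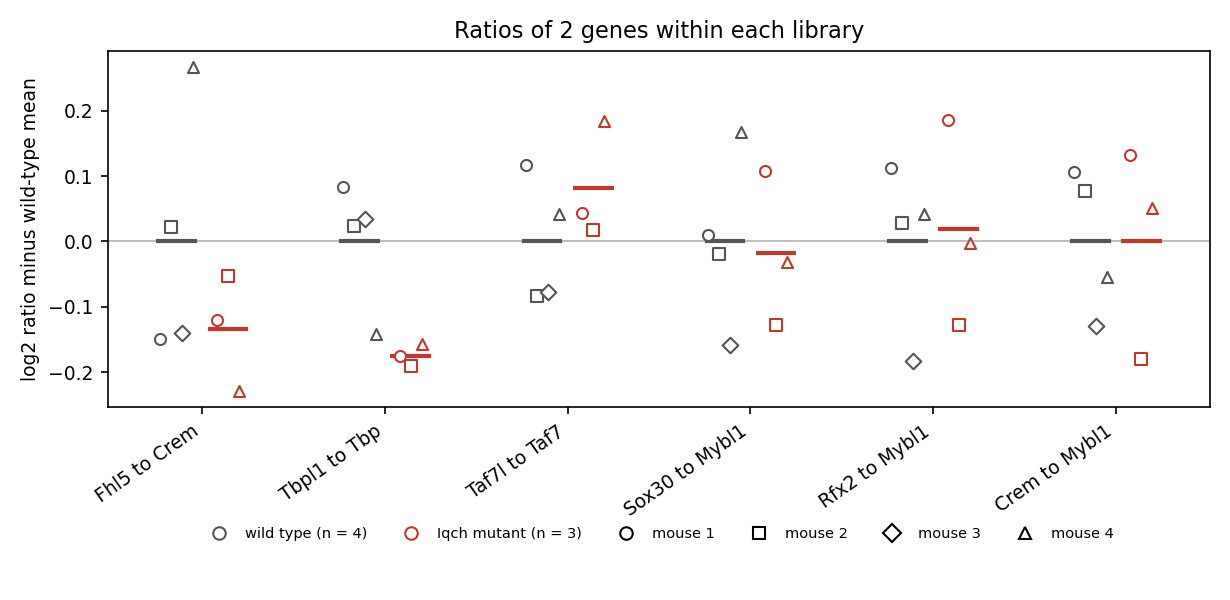
Log2 ratio of a regulator to a partner or relative in each library, minus the wild-type mean of that ratio, with horizontal bars for group means, wild type in grey (n = 4) and mutant in red (n = 3). Mutant points lie below every wild-type point for Tbpl1 to Tbp (difference -0.17) and overlap the wild-type points for the other 5.

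Relatives of the regulators, taken by family, held genes that rose and genes that fell, beside 36.3% of all genes called higher and 14.2% called lower. Among the CREB and ATF factors and their coactivators, 6 of 9 rose and 1 fell, with a median of 0.22, while with size factors 3 were higher and 2 lower, with a median of 0.09. The CREB coactivators Crtc2, Crtc1 and Crtc3 rose by 0.59, 0.54 and 0.53, and they were the 3 called higher with size factors. Creb3l4, a membrane-bound relative, fell from 313 ± 11.9 to 271 ± 7.56 CPM (SD), or -0.21, a fall that round spermatid markers turn above 0. In the FHL family the somatic Fhl1 and Fhl2 rose by 0.62 and 0.56, and the germ-cell Fhl4, at -0.32, fell with Fhl5, and all 4 FHL genes tested kept their calls with size factors.

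Of 6 genes of the TBP family and TFIIA, 2 fell, Tbpl1 and Gtf2a1l, the germ-cell TFIIA subunit gene, which went from 280.0 ± 11.8 to 233 ± 6.23 CPM (SD; -0.26 on the log2 scale). With size factors 3 of the 6 were lower, Tbp among them. Tbp was not called on deposited CPM, at -0.02, but was called lower with size factors, at -0.16 (limma FDR 0.00555). Taf7 was called on neither scale, at 0.07 on deposited CPM and -0.07 with size factors. Of 16 TFIID subunits, 5 rose, near the share of all genes called higher (36.3%), and 1 fell, with Taf1 at 0.64, Taf4 at 0.42 and Taf2 at 0.28, and Taf6 at -0.18, which round spermatid markers turn above 0. With size factors 2 of the 16 were called higher, and Taf2 was not among them.

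DNA-binding relatives were mixed. Of 7 RFX genes tested, Rfx7 rose by 0.39, and Rfx3, at -0.18, fell with Rfx2, both falls lying above 0 against round spermatid markers, and 1 was higher and 3 lower with size factors. Of 10 SOX genes tested, 5 rose and 2 fell on the deposited scale, with a median of 0.17, and with size factors 3 were higher and 2 lower, with a median of 0.03. Sox13, Sox8 and Sox12 rose by 1.03, 0.63 and 0.52, while Sox6, at -0.19, fell with Sox30, again above 0 against round spermatid markers. In the MYB family 0 of 2 were called, with Mybl2 at 0.22, and 1, Mybl1, was lower with size factors.

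Other regulators of the same stages were counted as lists of meiotic and of spermatid genes. Of 10 other spermatid regulators, 8 fell and 0 rose, beside 14.2% of all genes called lower, with a median of -0.23. With size factors 9 were lower, beside 25.1% of all genes. Falls smaller than 0.22 lie above 0 against round spermatid markers. The helix-loop-helix factor Spz1 went from 1251 ± 34.7 to 948 ± 51.5 CPM (SD), or -0.40. Camk4, a kinase of spermatids, was at -0.35 and Kif17, a kinesin that binds ACT, at -0.28. Of 11 other meiotic regulators, 2 fell, near the 14.2% of all genes called lower, and 0 rose, with a median of 0.08. With size factors 4 were lower, beside 25.1% of all genes, and the median was -0.05. The 2 that fell were Hsf5 at -0.26 and Zfp541 at -0.21, the latter above 0 against round spermatid markers. Whether the meiotic and spermatid lists differ was not tested.

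All 11 genes known as CREM targets fell, with a median of -0.58 and a range of -0.68 to -0.20, beside 14.2% of all genes. Against round spermatid markers all but Acrv1 stay below 0, and Acrv1 is itself among the markers that form this scale. The transition protein gene Tnp1 went from 3117 ± 83.8 to 1948 ± 155 CPM (SD), or -0.68, the sperm mitochondrial protein gene Smcp also stood at -0.68, and the protamine gene Prm1 at -0.66. In the same libraries the mean log2 level of the 11 targets minus that of Crem was 3.17 ± 0.0584 in the wild type and 2.85 ± 0.102 in the mutant (SD), and every mutant was below every control, with a difference of -0.32. However, 7 of these 11 genes are also in the spermatid marker lists used here. For the remaining 4, Ace, Akap4, Ldhc and Pgk2, the difference was -0.16, with the mutants again below all controls. The study itself counts Akap4, the largest fall of these 4 at -0.40, as a spermatid marker, so the 4 are not free of such markers.

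Of 10 genes known as targets of A-MYB, 4 fell and 0 rose, beside 14.2% of all genes called lower, with a median of -0.08. With size factors 6 were lower, beside 25.1% of all genes. The largest falls were those of Ccna1, a meiotic cyclin, at -0.26, Tcfl5 itself at -0.21 and Tdrd6, a piRNA pathway gene, at -0.18, and the falls of Tcfl5 and Tdrd6 lie above 0 against round spermatid markers. The mean log2 level of the 10 targets minus that of Mybl1 differed by 0.08 between the groups, which overlapped.

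**Figure D4:**
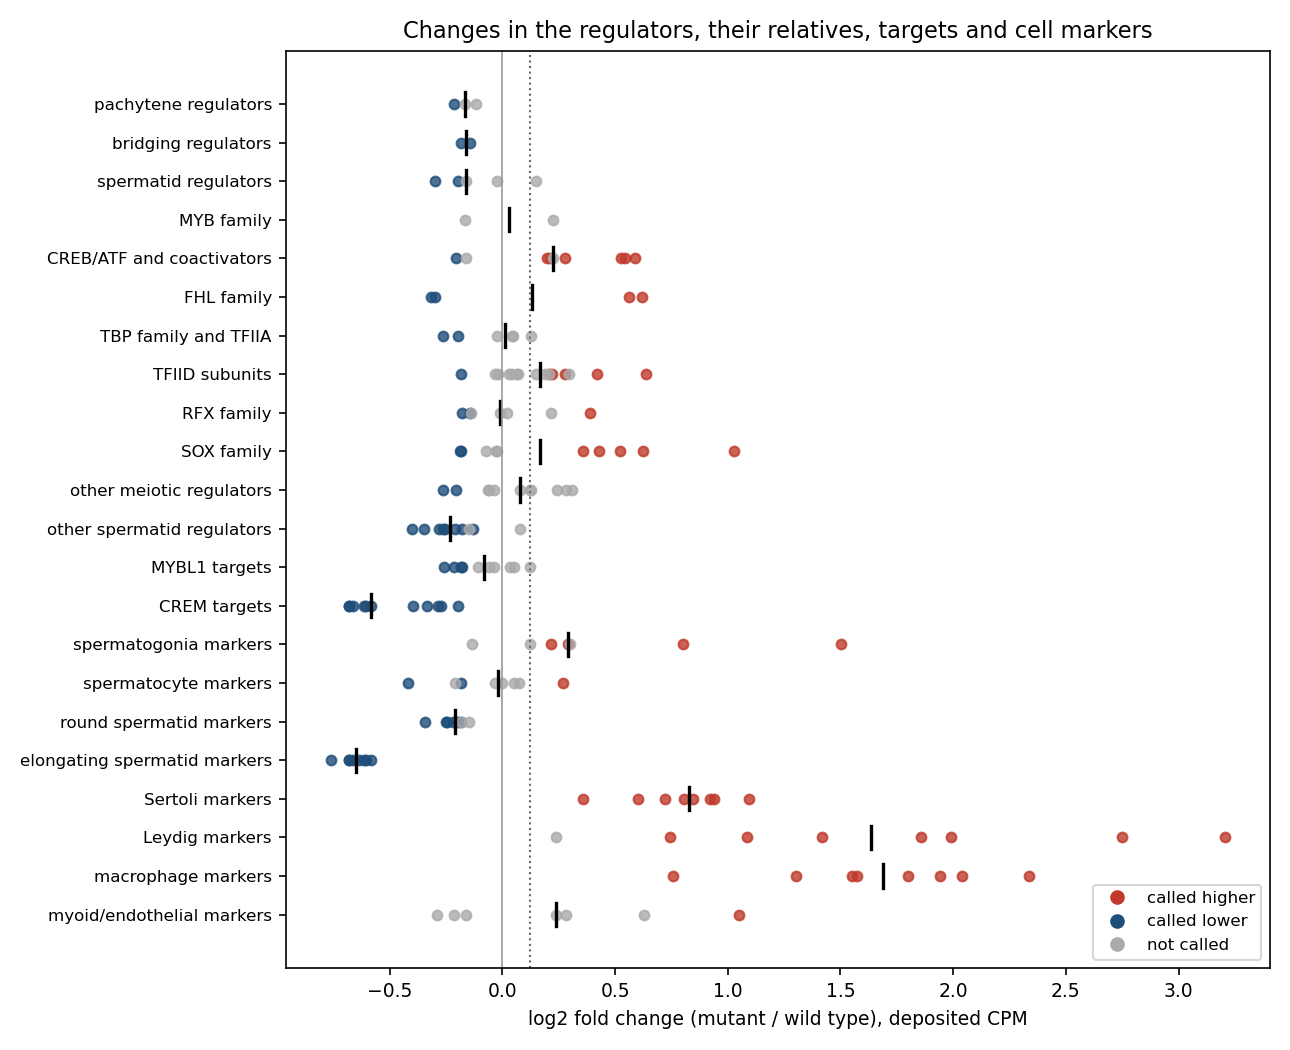
Log2 fold change (mutant over wild type, deposited CPM) of each tested gene in the classes of regulators, their families, their targets and cell markers, with black bars for list medians and a dotted line at the median of all genes, 0.12. The 3 classes of regulators share a median of -0.16, the 11 CREM targets one of -0.58, and the Sertoli, Leydig and macrophage markers lie to the right. Scaling to round spermatid markers moves every point right by 0.22. That puts the 3 class medians above 0 and the median of all genes at 0.34.

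Fhl5 and Tcfl5 had the largest fold changes of the 10 on deposited CPM. The 3 genes of the table whose log2 CPM over the 7 libraries was most like that of Fhl5 were Cypt12, with Pearson r = 0.994, Mgat4f, with r = 0.992, and Acss2, with r = 0.992. For Tcfl5 they were the long non-coding RNAs 1700007P06Rik (r = 0.995), 1700100L14Rik (r = 0.995) and Itpr3os (r = 0.994). These correlations describe 7 libraries that share a division into 2 groups and the same scaling.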

How the data were processed

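RNA-seq was done on whole testes, 1 library per mouse. Reads had been trimmed by the authors (Trimmomatic), aligned to GRCm39 (Subread) and counted per gene (featureCounts), and a gene stayed in if 2 samples of either group had 75 reads of it. The table deposited by the authors holds CPM, which sum to 1000000 in each of the 7 libraries and are whole multiples of 1 step per library (100% within 0.01 of a whole number). With that step taken as 1 read, library totals were 33424628, 34331380, 32859673 and 37551057 for wild type 1 to 4 and 34806129, 32064384 and 32557330 for mutants 1, 2 and 4, and 1 read was worth 0.0266 to 0.0312 CPM. The annotation release and strand setting of the counting are not given in the sources used here.

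Genes that reached 2.2 CPM in 2 samples of either group were tested on the scale log2(CPM + 0.1), which understates changes of low genes, by limma 3.58.1 under R 4.3.3 (lmFit, then eBayes allowing for a mean-variance trend). Benjamini-Hochberg adjustment (FDR) ran over 17126 genes, with calls below 0.01. The fit was tested on simulated data. Ratios used an exact permutation test over all 35 divisions of the libraries into 3 and 4. Size factors were medians of ratios. Gene names, coordinates and exon lengths came from GENCODE M39 on GRCm39, which held 17045 genes (99.5%), and promoters from RefSeq on GRCm38.p6. Summaries used Python 3.11.15, NumPy 2.4.6 and pandas 2.3.3, and figures matplotlib 3.10.9.

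The members and lists were chosen with earlier results of these data known. All 10 members are named, and from each other list up to 3 called genes in each direction with the largest log2 fold change; a few counterparts of members are named besides. CREM targets overlap the spermatid marker lists in part. The alternatives were pseudocounts of 1 and 0.01, no minimum or 5 CPM, size factors, a block for the replicate number, each library left out, and, chosen after seeing the data, scaling to round spermatid or spermatocyte markers. Samples with the same number did not deviate together, so the block is given only as an alternative. A planned ratio and a planned gene list are not reported here.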

Additional observations from a re-analysis of the deposited data

Results flagged for a closer look

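In 46 sets of 4 wild-type values examined, 2 had 1 library far from the others, where chance gives about 1 in 20. Sox30 was at 209.7 CPM in wild type 4, against 183 to 186 CPM in the other controls. The A-MYB target Tdrd6 was at 885 CPM in wild type 3, against 824 to 832 CPM in the others.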

How the results depend on the processing

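Of the 10 regulators, 5 were called on deposited CPM, 8 with size factors, 2 (both higher) against round spermatid markers, 0 against spermatocyte markers and 2 to 5 as each library was left out (3 without wild type 1, 2 without wild type 2 or mutant 2, 3 without mutant 4); the cause was not tested. With size factors Mybl1 (-0.30), Brdt (-0.25) and Crem (-0.30) were called lower, and a pseudocount of 1 called Crem (-0.16, FDR 0.00999). Against round spermatid markers the log2 fold changes were Mybl1 0.0571, Tcfl5 0.00752, Brdt 0.105, Sox30 0.0403, Rfx2 0.0762, Crem 0.0588, Tbpl1 0.0254, Taf7l 0.369, Sox5 0.198 and Fhl5 -0.0750. Against spermatocyte markers the calls of Tcfl5 (-0.16), Sox30 (-0.13), Rfx2 (-0.0892), Fhl5 (-0.24) and Tbpl1 (-0.14) were lost and Sox5 stood at 0.0331. As each library was left out, Sox30 ran from -0.20 to -0.14, Rfx2 from -0.17 to -0.12, Crem from -0.20 to -0.12, Fhl5 from -0.35 to -0.24, Tbpl1 from -0.24 to -0.17, Taf7l from 0.0907 to 0.227 and Sox5 from -0.0563 to 0.00278, while Tcfl5 kept its call. Ratios to Mybl1 changed sign as libraries were left out, Sox30 from -0.0798 to 0.0390, Rfx2 from -0.0650 to 0.0918 and Crem from -0.0642 to 0.0920, and Crem to Mybl1 was -0.000305 with a pseudocount of 1. With the replicate number as a block 7722 genes and 4 of the 10 regulators were called, against 8640 and 5 without it, and Tbpl1 (-0.17, FDR 0.0168) lost its call. The same-numbered samples had correlations of deviations of 0.0301, 0.00824 and -0.106, so they share only a number. The share of all calls that were higher was 71.9% on deposited CPM, 51.9% with size factors, 93.0% against round spermatid markers and 83.4% against spermatocyte markers. Scaling with TMM and the count tests of edgeR and DESeq2 were not run, since too few values are low enough to check that reads recovered from the CPM are counts. With 3 and 4 libraries, an exact test of 1 value cannot go below 0.0286.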
